A study of Mus musculus with 16 samples.

Results

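Coverage of gene bodies by trimethylated lysine 36 of histone H3 (H3K36me3) was compared between wild-type and Setd5+/- neural stem cells, gene by gene. The genes were all protein-coding genes of at least 5 kb on the 16 autosomes other than 1, 4 and 15, 13356 of the 21887 that RefSeq annotates in GRCm38. Chromosomes 1, 4 and 15 were kept apart by a rule set with earlier results of these data known. Mean coverage of their genes was 11.6, 2.65 and 7.39 percentage points higher in Setd5+/- cells, so leaving them out lowers the mean change. Chromosome X was kept apart because it is not an autosome. Both groups are neural stem cells taken at E14.5 from the telencephalic cortex of mouse embryos, grown as neurospheres, plated on Matrigel and fixed with 1% formaldehyde. One group is wild type and the other carries 1 altered Setd5 allele, and no treatment is named for either. The labels give neither the way the allele was made nor the number of embryos. Each group has 1 H3K36me3 ChIP-seq library (chromatin immunoprecipitation with an Abcam antibody, then sequencing). No difference below therefore has a replicate check or a p-value. A further group of E14.5 neural stem cells, wild type with V5-tagged SETD5, has 1 V5 ChIP-seq library, whose islands are also used below.

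H3K36me3 is laid down mainly by SETD2, which travels with elongating RNA polymerase II, so the mark builds up over the bodies of transcribed genes toward their 3′ ends. It is read by PWWP, chromo and Tudor domain proteins, among them the DNA methyltransferases DNMT3A and DNMT3B and the mismatch repair protein MSH6. Promoters of active genes normally carry H3K4me3 in its place. Whether SETD5 methylates H3K36 is the question named in the title of the series.

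The authors' islands (stretches called as enriched) numbered 6764 in wild type against 7396 in Setd5+/- cells on the 16 autosomes. They covered 151.9 and 148.2 Mb, with median widths of 16.8 and 15.2 kb, and held 1986887 and 2532573 reads. The weakest 1% of islands lay below 8.42 reads per kb in wild type against below 11.7 in Setd5+/- cells, and the medians were 11.8 and 16.1. The Setd5+/- islands were therefore narrower, more numerous and denser in reads. Over the 5977 wild-type islands with a Setd5+/- partner, the log2 ratio of reads per kb had a median of 0.46 (SD 0.19), and 3 of them lay more than 1 from it. Library totals were not at hand, so the ratio cannot be scaled to depth, and its part in the results below was not tested.

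The cells were checked by markers. Of 9 measured markers of neural stem cells and radial glia, 5 were marked in wild type against 7 in Setd5+/- cells, a gene counting as marked when islands covered 25% or more of it. Ptprz1, a receptor phosphatase of radial glia, was covered over 95.6% and 91.5%, and Vim, which encodes vimentin, over 98.9% and 89.5%. Notch1 (81.9% and 92.3%), Pax6 (73.2% and 57.0%) and Cdh2 (28.3% and 26.5%) were also marked in both genotypes. Msi1 and Msi2 were marked in neither, and Sox9 and Nes in Setd5+/- cells alone, with no coverage in wild type. H3K4me3 stood near a start of 7 of the 9 in both genotypes, but not of Pax6 or Msi1. None of 5 neuronal, 4 microglial and blood, 3 endothelial and 3 mesenchymal markers was marked in either genotype, though H3K4me3 stood at the start of 3, 0, 1 and 2 of them in wild type.

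Coverage of gene bodies was nearly the same in sum and differed by place. Islands covered 26.7% of the average gene in wild type against 25.9% in Setd5+/- cells, a difference of -0.86 points. By a change of at least 20 points, 957 genes had lower coverage in Setd5+/- cells (7.17% of 13356) and 742 had higher coverage (5.56%). The genes next to the thresholds changed by -20.05 and -19.95 points on the lower side and by 20.01 and 19.95 points on the higher side. Of the marked genes, 4852 in wild type against 4905 in Setd5+/- cells, 4383 were marked in both. More genes were lower than higher on 15 of 16 autosomes, and the mean change ran from -2.22 points on chromosome 11 to 0.50 on chromosome 13. Islands lay mostly inside protein-coding genes in both genotypes, with 93.0% and 93.5% of the covered length. With all autosomes together the mean change was 0.50 points, in the other direction.

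In genes marked in both genotypes, mean coverage differed most near the 5′ end. The loss and gain of the called genes were spread along the gene, as given further below. Strand was known for 10714 genes (80.2%), and 3643 of these were marked in both genotypes. In these genes the first kb was covered over 17.5% in wild type against 4.07% in Setd5+/- cells. The kb before the start was covered over 12.8% and 3.92%, the second kb over 29.1% and 14.0%, the third kb over 43.4% and 34.5% and the fourth kb over 52.6% and 48.8%. Between 11 and 12 kb from the start the values were 70.2% and 70.1%, so the curves met inside the gene. The first kb was less covered in Setd5+/- cells on 15 of 15 autosomes with strand. By autosome its coverage lay between 14.0% and 22.5% in wild type and between 2.28% and 5.42% in Setd5+/- cells. The autosomes of a genotype come from the same library, so here and in the other counts by autosome they are not replicates. The spread between autosomes therefore does not give the spread between cultures.

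The 3′ end differed less. The last kb of these genes was covered over 82.2% in wild type against 80.9% in Setd5+/- cells. The first kb past the end was covered over 72.2% and 69.1%, and the kb from 3 to 4 past it over 40.6% and 35.5%. H3K4me3 islands, the mark of active promoters, covered 90.9% and 91.1% of the same first kb, so the promoter mark covered the same share of the kb where H3K36me3 differed. Islands of V5-tagged SETD5 (SETD5-V5) in wild-type cells covered 1.07% of the first kb and 42.0% of the kb from 11 to 12.

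**Figure D1:**
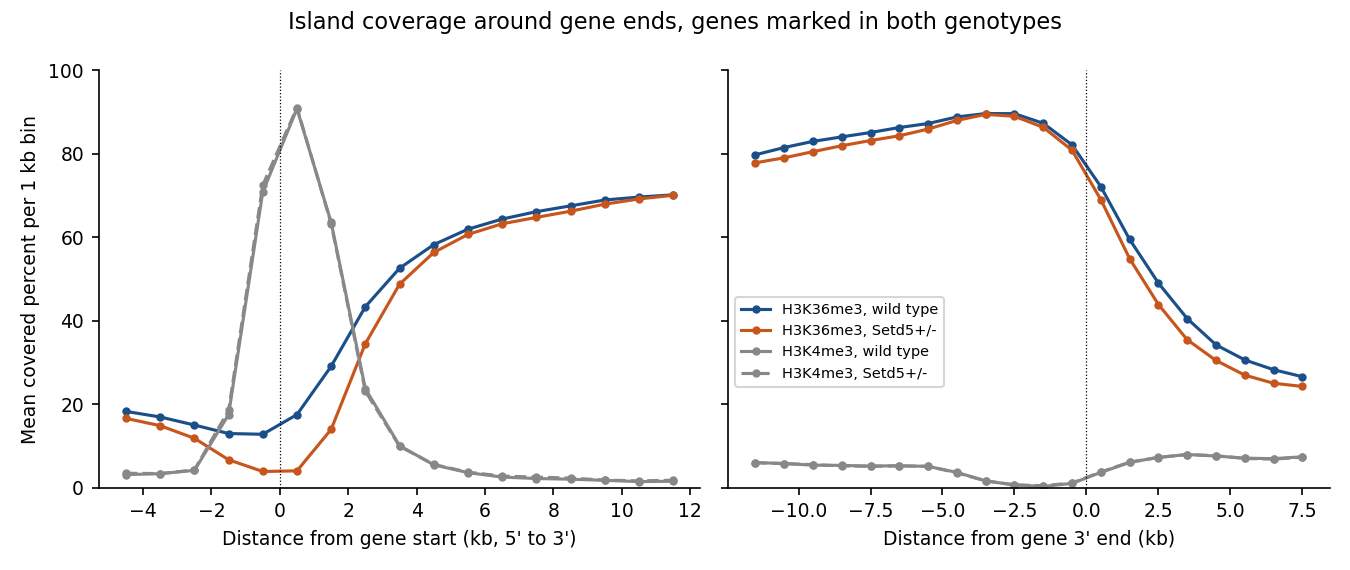
Mean percent of each 1 kb bin covered by islands around the start (left) and the 3′ end (right) of 3643 genes marked in both genotypes, for H3K36me3 (blue wild type, orange Setd5+/-) and H3K4me3 (grey, solid wild type and dashed Setd5+/-, nearly superimposed). The H3K36me3 curves stand apart at the start, 17.5% against 4.07% in the first kb, and meet at 11 to 12 kb.

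The first base of the gene lay in an H3K36me3 island in 649 genes in wild type against 218 in Setd5+/- cells. It was covered in wild type alone in 521 genes (4.86% of 10714) and in Setd5+/- cells alone in 90 (0.84%). The Setd5+/- count was lower on 15 of 15 autosomes, at 0.25 to 0.41 of the wild-type count. Among the chromosomes kept apart the counts were 71 and 66 on chromosome 1, 56 and 31 on chromosome 4, 19 and 11 on chromosome 15 and 10 and 3 on X. Island edges lie on windows of 800 bp and the caller bridges gaps of up to 2.4 kb, so an island over a start may hold an unenriched stretch. With islands within 10 kb joined, the counts were 1070 and 787, a ratio of 0.736 in place of 0.336. For genes with no other protein-coding gene within 10 kb they were 60 and 10.

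**Figure D2:**
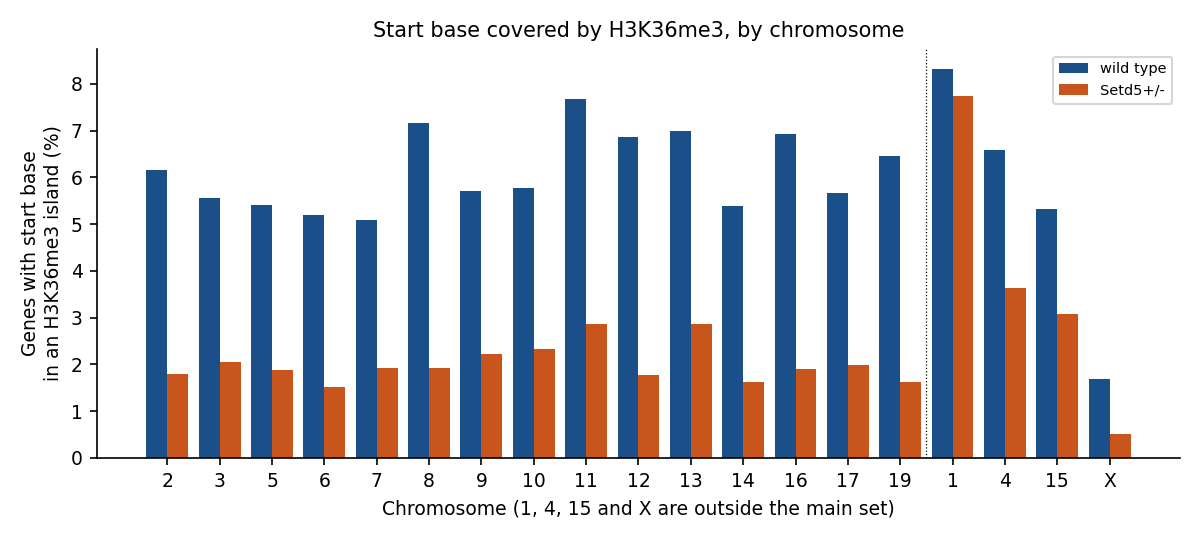
Percent of genes whose first base lies in an H3K36me3 island, by chromosome, in wild type (blue) and Setd5+/- (orange). All 15 autosomes left of the dotted line have the shorter bar in Setd5+/- cells, at 0.25 to 0.41 of the wild-type count, and chromosome 1 has 71 and 66 genes.

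The promoters of 4 genes show such starts. Zfp207, Rps7 and Zfp110 have the densest wild-type islands among genes whose start was covered in wild type alone, with H3K4me3 over the start in both genotypes and at least 50% of the body covered in both. Cog4 is the densest by the same conditions among genes with the start covered in both. The RefSeq promoter of GRCm38.p6 is printed from 250 bases before to 50 after the start, 5′ to 3′ on the strand of the gene, with each CG in capitals. They lie at chr11:80383029-80383328 (plus strand), chr12:28635904-28636203 (minus), chr7:12834511-12834810 (plus) and chr8:110846350-110846649 (plus).
Zfp207: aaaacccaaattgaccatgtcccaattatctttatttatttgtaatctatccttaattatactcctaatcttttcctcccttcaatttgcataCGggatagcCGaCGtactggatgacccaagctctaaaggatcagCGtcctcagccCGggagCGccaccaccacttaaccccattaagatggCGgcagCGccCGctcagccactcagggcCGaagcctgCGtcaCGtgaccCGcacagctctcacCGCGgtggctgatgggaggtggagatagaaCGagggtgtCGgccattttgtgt
Rps7: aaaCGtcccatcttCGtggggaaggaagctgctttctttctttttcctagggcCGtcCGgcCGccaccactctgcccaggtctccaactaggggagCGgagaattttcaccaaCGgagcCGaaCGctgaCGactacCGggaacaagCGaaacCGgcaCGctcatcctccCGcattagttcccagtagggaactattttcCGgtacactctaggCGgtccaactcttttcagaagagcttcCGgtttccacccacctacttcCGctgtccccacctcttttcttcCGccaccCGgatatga
Zfp110: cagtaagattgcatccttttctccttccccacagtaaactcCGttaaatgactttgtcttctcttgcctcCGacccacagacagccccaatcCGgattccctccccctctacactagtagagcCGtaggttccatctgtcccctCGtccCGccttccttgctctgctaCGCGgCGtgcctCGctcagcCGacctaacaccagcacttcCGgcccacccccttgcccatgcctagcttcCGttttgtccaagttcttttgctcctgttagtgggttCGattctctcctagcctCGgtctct
Cog4: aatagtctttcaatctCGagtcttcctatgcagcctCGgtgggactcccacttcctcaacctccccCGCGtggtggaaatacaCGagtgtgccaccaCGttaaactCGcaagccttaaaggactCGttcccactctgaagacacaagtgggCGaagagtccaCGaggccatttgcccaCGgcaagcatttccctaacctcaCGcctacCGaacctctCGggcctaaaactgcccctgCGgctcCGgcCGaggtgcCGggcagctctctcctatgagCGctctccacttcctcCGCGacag

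These promoters hold 17, 21, 15 and 21 CG. Zfp207, which encodes a spindle checkpoint and splicing protein, had a wild-type island beginning 0.078 kb before the start and a Setd5+/- island beginning 2.32 kb after it. Coverage of the gene was 100% and 90.8%, from 534 and 837 reads in the island, and the H3K4me3 island over the start held 197 and 177 reads per kb. In Rps7, a small ribosomal subunit protein gene, the edge lay 0.047 kb before the start in wild type and 0.753 kb after it in Setd5+/- cells, with 100% and 85.3% of the gene covered. In the zinc finger gene Zfp110 it lay 0.36 kb before and 1.24 kb after the start. The edge differed by 1 to 3 windows in these genes, while the H3K4me3 island stayed. Cog4, a subunit of a Golgi tethering complex, lay wholly inside 1 island in both genotypes, which began 39.4 and 37.8 kb upstream of its start.

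Promoter sequence was available within 500 bp of the start for 8954 genes. A promoter held a median of 22 CG in the 472 genes whose start was covered in wild type alone, 24 in the 2681 genes marked in both with an uncovered start, 18 where the start was covered in both (90 genes) and 17 over all 8954. The GC box letters GGGCGG, on either strand, were present in 60.8%, 71.6%, 51.1% and 54.3% of these promoters, and TATAAA, on either strand, in 5.93%, 5.56%, 10.0% and 9.28%. GGGCGG contains a CG, so the counts overlap. H3K4me3 lay over the start base in 95.8%, 93.8%, 68.9% and 66.0%. In the 74 genes whose start was covered in Setd5+/- cells alone, promoters held a median of 18.5 CG. Of these promoters 45.9% had GGGCGG, 10.8% had TATAAA and 75.7% had H3K4me3 over the start base. In CG, TATAAA and H3K4me3 the starts covered in wild type alone lay nearer to those of other marked genes than to the average promoter, and in GGGCGG nearer to the average.

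In many of the 521 genes the wild-type island reached in from upstream. It began a median of 8.16 kb before the start, more than 2.4 kb before it in 359 genes and within 2.4 kb in 162. These genes had a median length of 18.0 kb and a median coverage of 100% in wild type against 75.8% in Setd5+/- cells. A set chosen by starts covered in wild type alone itself leans to higher wild-type coverage. The 90 genes with the start covered in Setd5+/- cells alone had medians of 46.6% in wild type and 89.7% in Setd5+/- cells. The island over their start began more than 2.4 kb before it in 68. Of the 521 genes, 415 were still marked in Setd5+/- cells and 89 had no coverage. H3K4me3 lay over the start base of 484 in wild type and of 482 in both genotypes.

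The same pattern appeared from the side of the promoter mark. Of 18283 wild-type H3K4me3 islands, 2259 touched a wild-type H3K36me3 island and 1446 a Setd5+/- one. The length of H3K4me3 under H3K36me3 was 4.02 Mb with the wild-type islands and 1.77 Mb with the Setd5+/- islands. With each genotype's own lists the share of H3K4me3 length under H3K36me3 was 11.5% and 5.24%, and that of H3K27ac, a mark of active promoters and enhancers, 19.2% and 11.7%. On chromosome 1 the share of H3K4me3 was instead higher in Setd5+/- cells, 16.3% and 20.1%, though the first kb of marked genes there was covered over 25.6% and 15.1%. The fourth kb on chromosome 1 was covered over 56.2% and 79.7%, so coverage there was lower at the start and higher in the body.

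The 5′ edge of the first island was measured in 871 marked genes with no other protein-coding gene within 10 kb. It lay a median of 5.07 kb from the start in wild type against 5.23 kb in Setd5+/- cells. It lay further in for 439 genes (50.4%), further out for 267 (30.7%) and at the same place for 165, with a median shift of 0.8 kb, 1 window. The 3′ edge lay further in for 42.3% and further out for 35.6%, with a median shift of 0. In genes of 5 to 10 kb the 5′ edge lay further in for 34 of 56 and further out for 5, and its median distance from the start was 1.30 and 2.05 kb. On 14 of 15 autosomes more 5′ edges lay further in than out, and on chromosome 1 28 lay in and 51 out.

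Short genes lost the largest share of their span. Among genes marked in wild type, the mean change was -17.97 points at 5 to 10 kb, -10.86 at 10 to 20 kb and -3.77 at 20 to 50 kb, and between -3.44 and -3.83 in the 3 classes above. A set chosen by its wild-type level leans to loss, and among genes marked in Setd5+/- cells the mean change was positive in every class, from 0.56 to 3.06 points. Among genes marked in either genotype, which treats the genotypes alike, mean coverage at 5 to 10 kb was 67.1% and 61.0% (696 genes), at 10 to 20 kb 69.3% and 65.7% (1371 genes) and at 20 to 50 kb 66.8% and 66.4% (1933 genes). Above 200 kb it was 40.6% and 39.8% (78 genes). Over all genes, marked or not, the share called lower was 9.76% at 5 to 10 kb, 6.76% at 20 to 50 kb and 1.18% above 200 kb. The share called higher did not follow that order, at 5.22%, 7.44% and 0.394%, and at 20 to 50 kb it was the larger of the pair. Above 200 kb 78 of 761 genes were marked in either genotype.

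Among genes with strand marked in either genotype, the lower mean of short genes was not seen beyond the first 4 kb, a boundary chosen after the profile was seen. In this set the change at 5 to 10 kb was -5.08 points over the whole span (67.0% and 61.9%, 587 genes) and 0.51 without the first 4 kb (82.7% and 83.2%). At 10 to 20 kb it was -3.61 and -0.09 points. Among genes marked in wild type the loss at 5 to 10 kb remained, at -16.68 points over the whole span and -14.02 without the first 4 kb (501 genes). Among genes marked in Setd5+/- cells the change was 3.44 and 13.1 points (513 genes), so without the first 4 kb the sets chosen by either genotype changed by similar amounts in opposite directions. Over all 10714 genes with strand the mean change was -0.81 points over the whole span and 0.14 without the first 4 kb. The calls were 774 lower and 617 higher over the whole span, and 639 and 638 without it.

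**Figure D3:**
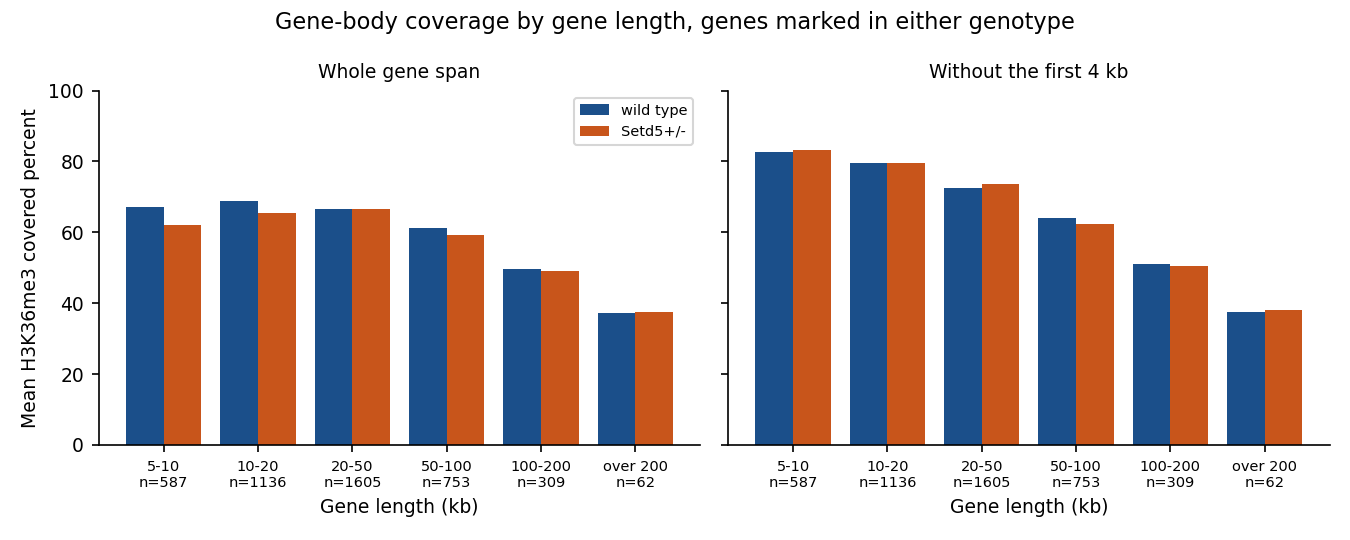
Mean H3K36me3 covered percent by gene length in wild type (blue) and Setd5+/- (orange), for genes with strand marked in either genotype, over the whole gene (left) and without its first 4 kb (right). At 5 to 10 kb the bars stand at 67.0% and 61.9% on the left and at 82.7% and 83.2% on the right.

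Genes under weak islands differed most, in both directions. The genes touched by a wild-type island were split into 5 equal classes by the reads per kb of that island. In the weakest class (7.5 to 10.6 reads per kb, 1168 genes) coverage was 44.4% in wild type against 34.2% in Setd5+/- cells, and 26.5% of genes were called lower and 6.93% higher. In the strongest class (from 14.1 reads per kb) it was 70.5% and 68.4%, with 6.77% lower and 4.88% higher. When the classes were made from Setd5+/- islands, the weakest held 31.5% in wild type against 42.7% in Setd5+/- cells, with 9.11% of genes lower and 27.9% higher. The weak class of either genotype thus had its lower value in the other genotype.

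The strongest class did not mirror in this way. By Setd5+/- density it had 74.5% in wild type against 69.7% in Setd5+/- cells, 10.9% of its genes called lower and 3.04% higher, so coverage was lower in Setd5+/- cells in the strongest class of both splits. Without the first 4 kb, in genes with strand, the change in the strongest class was 0.61 points by wild-type density and -0.79 by Setd5+/- density. Among genes marked in wild type, a set that leans to loss, the change went with both length and density. In the strongest wild-type class these genes changed by -9.22 points at 5 to 10 kb (190 genes) and -1.16 at 50 to 100 kb (104 genes). In the weakest class they changed by -31.96 (61 genes) and -9.51 points (185 genes). Length within classes of Setd5+/- density was not examined.

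**Figure D4:**
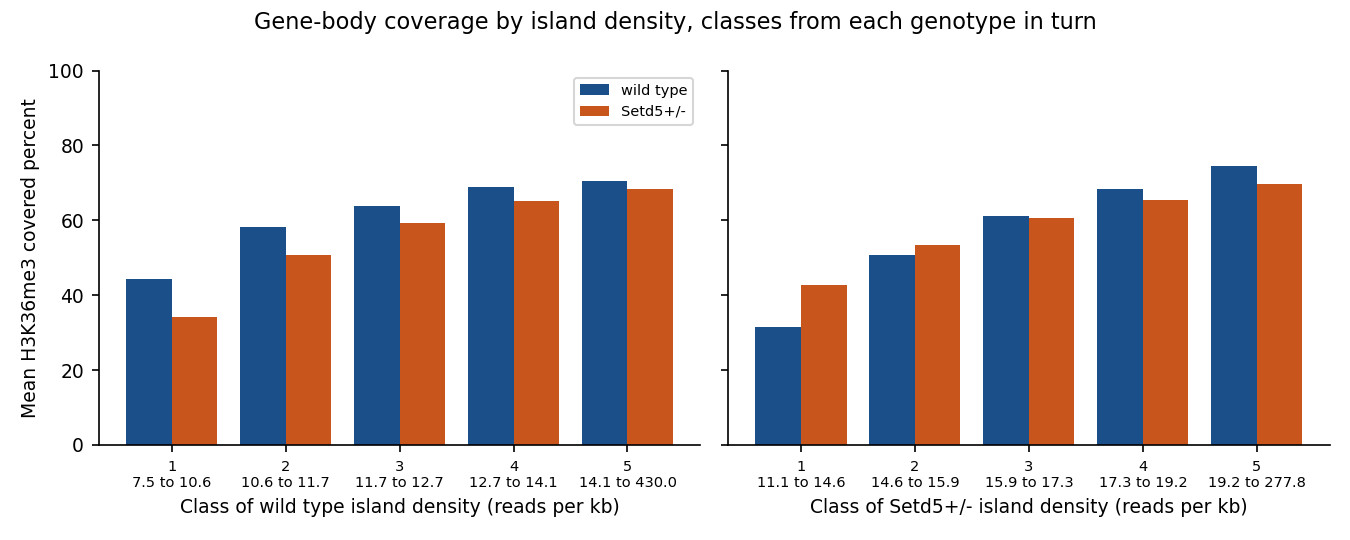
Mean H3K36me3 covered percent in wild type (blue) and Setd5+/- (orange) in 5 classes of genes by reads per kb of the overlapping wild-type island (left) or Setd5+/- island (right). The weakest class has 44.4% and 34.2% on the left and 31.5% and 42.7% on the right.

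Coverage was lost entirely from 266 marked genes and was new, from none, in 331. The lost genes had a median length of 13.3 kb and a wild-type density of 10.9 reads per kb, against 12.4 for the 4383 genes marked in both. The new genes had a median length of 14.8 kb and a Setd5+/- density of 14.4 reads per kb, against 17.1. A SETD5-V5 island touched 20 of the lost genes (7.52%), 23 of the new ones (6.95%) and 3025 of those marked in both (69.0%). Against the genes marked in both, lost and new genes were alike in being shorter, less dense in reads and less often touched by SETD5-V5 islands. The choice of genes with no coverage in the other genotype itself leans to weak islands, so their low density is not a separate result. No set of equal density and length was compared, so whether SETD5-V5 islands touch these genes less often than other weakly marked genes was not tested.

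Wide islands differed at their edges first. Of the 104.8 Mb in 2850 wild-type islands of at least 20 kb, 16.9 Mb (16.2%) lay outside Setd5+/- islands. Of that length 66.7% was at the edges, 22.2% inside and 11.0% in islands with no Setd5+/- overlap. From the outermost of 10 bins to the middle one, the uncovered share went from 42.2% to 11.3%. By island, 491 were covered whole (17.2%), 1087 lacked coverage at 1 edge, 525 at both edges, 254 inside alone, 418 at an edge and inside, and 75 altogether. In 672 islands (23.6%) the Setd5+/- coverage was in at least 2 pieces.

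The reverse comparison gave the same shape with less length. Of 94.0 Mb in 2590 Setd5+/- islands, 11.7 Mb (12.5%) lay outside wild-type islands, 64.7% of it at the edges, and the share went from 30.2% to 9.53%. Whole coverage was found in 895 (34.6%), and 481 (18.6%) were in at least 2 pieces. Wild-type islands over genes of 1 strand (1895) lacked 44.6% of the outermost bin on the 5′ side and 39.7% on the 3′ side. The corresponding Setd5+/- islands lacked 30.8% and 31.3%, with no such difference between the sides.

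**Figure D5:**
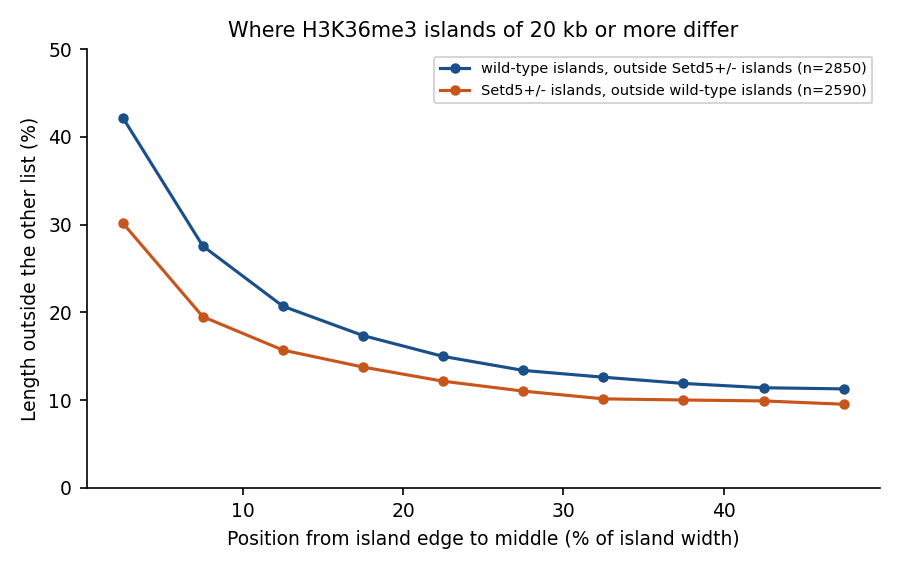
Share of island length outside the islands of the other genotype, from the edge to the middle of islands of at least 20 kb, for 2850 wild-type (blue) and 2590 Setd5+/- islands (orange). The share goes from 42.2% to 11.3% and from 30.2% to 9.53%.

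H3K4me3 was kept at nearly all genes that lost H3K36me3. Of the 957 genes with lower coverage, 921 had an H3K4me3 island within 1 kb of an annotated start (of either end where strand was unknown) in wild type, and 918 of these (99.7%) had one in Setd5+/- cells. The share kept was 704 of 705 for genes with higher coverage, 3490 of 3494 for genes marked in both with neither change, and 9183 of 9526 (96.4%) over all genes. The log2 ratio of H3K4me3 reads per kb, relative to the median of all genes, had medians of -0.02, 0.02 and -0.02 in the first 3 sets. Of the 266 genes that lost all coverage 248 of 251 kept H3K4me3, and of the 331 newly covered genes 313 of 313 with H3K4me3 in wild type had it in Setd5+/- cells. H3K27ac touched 800 and 716 of the genes with lower coverage, 545 and 514 of those with higher coverage, and 6715 and 6188 of all genes.

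The 3 genes with lower coverage and no H3K4me3 in Setd5+/- cells were Aldh1l1, Zfp709 and Gpx3. Aldh1l1, a folate enzyme and astrocyte marker, was covered over 38.0% in wild type, Zfp709, a zinc finger gene, over 89.2% and Gpx3, a secreted glutathione peroxidase, over 31.7%, and none had coverage in Setd5+/- cells. Their wild-type islands held 9.62, 9.92 and 8.37 reads per kb, all below the median of 11.8.

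Where coverage was lost within a gene varied. Of the 774 genes with strand and lower coverage, 249 had none in Setd5+/- cells, and 273, 165 and 87 lost most in the 5′, the middle and the 3′ of 3 equal stretches. Of the 617 with higher coverage, 299 had none in wild type, and 114, 131 and 73 gained most in the 5′, the middle and the 3′ stretch. Summed over the genes, the 5′, middle and 3′ stretches held 32.2%, 35.9% and 31.8% of the loss and 24.8%, 39.0% and 36.2% of the gain.

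Setd5 itself (chromosome 6, 113077262 to 113153432, plus strand) was covered over 98.5% in wild type against 73.3% in Setd5+/- cells. The wild-type island began 1.14 kb into the gene and held 1207 reads over 84.8 kb. In Setd5+/- cells the first island began 15.5 kb into the gene, was 6.4 kb wide and held 99 reads, and the second, of 60.8 kb and 1319 reads, began 26.7 kb in. The difference lay at the 5′ side of the gene, whose second Setd5+/- island had 21.7 reads per kb against 14.2 in the wild-type one. Setd2 (chromosome 9, 110532500 to 110618633) was covered over 84.8% and 79.2%, by 1 island beginning 13.1 kb in and by 2 beginning 13.9 and 53.9 kb in. Islands measure neither transcript nor allele, so these values do not check the genotype.

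The list of H3K36 methyltransferases includes Setd5, whose activity on H3K36 is the question named in the title of the series. Of its 6 measured genes 1, Setd5, was called lower and none higher. The median change of the list was 3.28 points against 0 over all genes. Nsd1, which makes H3K36me2, was covered over 94.3% and 96.5%, and Nsd3 over 58.0% and 64.4%. None of 4 demethylase genes was called, and Kdm2a, which removes H3K36me2, was covered over 91.9% and 75.4%. Of 10 readers 1 was lower and 1 higher. These counts stand beside 7.17% lower and 5.56% higher over all genes, and 17.2% and 13.2% among the 5374 genes marked in either genotype, and with so few members they set none of these lists apart. Msh6, the mismatch repair reader, was covered over 88.9% and 48.6%, its island beginning 1.75 kb and 8.15 kb into the gene. Phf19, a Polycomb-associated reader, was covered over 42.7% and 81.5%, by islands of 108 and 231 reads.

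The lists of transcribed housekeeping genes consist mostly of marked genes and had calls both ways, beside the same 17.2% lower and 13.2% higher among marked genes. Of 24 genes of RNA polymerase II elongation, 3 were lower and 3 higher, with a median change of 0. Supt4a, a subunit of the elongation factor DSIF, was covered over 99.2% in wild type, by an island of 79 reads, and not covered in Setd5+/- cells, while its partner Supt5 was covered over 68.2% and 91.6%. Ccnk, the cyclin of CDK12, was covered over 100% and 70.5%, and Rtf1, an elongation factor associated with the PAF complex, over 65.3% and 91.5%. Of 18 genes of oxidative phosphorylation 3 were lower and 1 higher. Cox4i1, a subunit of cytochrome c oxidase, was covered over 100% and 66.8%, and Ndufv1, of complex I, over 0% and 70.4%. Of 26 proteasome genes 3 were lower and 1 higher, with Psmb3 at 78.5% and 0% and Psma7 at 46.5% and 72.7%. Of 15 tRNA synthetase genes 2 were lower and 2 higher, with Qars at 100% and 59.7% and Hars at 56.8% and 81.5%.

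Of 27 DNA replication genes, 24 of them marked in wild type, 4 were lower and 2 higher, against the same 17.2% and 13.2% of marked genes. Cdc6, which loads the replicative helicase, was covered over 85.6% and 31.4%. Among the subunits of the GINS complex, part of that helicase, Gins1 was covered over 81.4% and 18.8%, Gins3 over 64.9% and 0%, and Gins2 over 4.29% and 55.5%, so members of 1 complex differed in direction. Of 13 genes of neural stem cells and radial glia, 7 were marked in wild type and 9 in Setd5+/- cells. None was lower and 2 were higher, against 7.17% and 5.56% of all genes, and 17.2% and 13.2% of genes marked in either genotype. With so few members these counts do not set the list apart. Sox9, a transcription factor of stem cells and glia, and Nes, which encodes the filament protein nestin, were uncovered in wild type and covered over 67.7% and 42.7% in Setd5+/- cells, each by 1 island of 4 kb with 86 and 82 reads. Of 21 genes of synapse and neuronal adhesion, 3 marked in wild type and 2 in Setd5+/- cells, 1 was lower against the same 7.17%, the glutamate receptor gene Gria2, at 65.9% and 43.0%.

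By covered length, 9 of the 10 largest losses lay in genes whose wild-type islands held fewer reads per kb than the median island of 11.8, and 1, Xylt1, a xylosyltransferase gene, lay above it at 12.9. Slc4a4, a sodium bicarbonate cotransporter gene of 446 kb on chromosome 5, was covered over 286.9 kb by 9 islands in wild type and over 151.7 kb by 4 in Setd5+/- cells. Meis2, a homeobox gene, went from 121.9 to 51.2 kb. Neto1, a subunit associated with glutamate receptors, had 85.1 and 9.6 kb. Arnt2, a transcription factor gene, had 73.6 kb in wild type, and Arpp21 had 69.6 kb, and neither was covered in Setd5+/- cells. H3K4me3 stood within 1 kb of a start in both genotypes in each of these 5 genes.

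Of the 10 largest gains, 8 lay in genes whose Setd5+/- islands were below the median of 16.09 reads per kb. Adgrv1, an adhesion receptor gene, at 16.15 and Fndc3b at 16.27 lay just above it. Spon1, which encodes the matrix protein spondin 1, was covered over 91.2 and 181.8 kb, Utrn, which encodes utrophin, over 68.8 and 139.2 kb, and Prkdc, the kinase of DNA end joining, over 48.0 and 115.8 kb. Srgap1 was covered over 72.8 kb and Sema3a, a secreted axon guidance factor, over 77.9 kb in Setd5+/- cells, both from none. Sema3a had no H3K4me3 near a start in either genotype, and Spon1, Utrn, Prkdc and Srgap1 had it in both.

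In the strongest density class the losses were in short genes with 1 island. Cks2, a cyclin-dependent kinase subunit gene of 5.43 kb, was covered over 93.2% and 34.3%, its island beginning 0.369 and 3.57 kb into the gene and ending at the same base. Rit1, which encodes a Ras-related GTPase, was covered over 100% by an island of 85.6 kb and over 38.3% by one of 9.6 kb. Cox18, a factor for cytochrome oxidase assembly, Smim43 and Tmem127 were covered over 100%, 100% and 91.6% in wild type against not in Setd5+/- cells. Their wild-type islands were 79.2, 7.2 and 52 kb wide, over genes of 9.87, 5.79 and 13.2 kb. The density of Cox18 and Tmem127 thus came mostly from island length outside the gene. Fut11, a fucosyltransferase gene, and Bscl2, which encodes seipin, a protein of lipid droplets, were covered over 100% in Setd5+/- cells and not in wild type. Their Setd5+/- islands were 25.6 and 26.4 kb wide, over genes of 5.23 and 11.2 kb. Eif4enif1 and Drg1, neighbours on chromosome 11, were covered over 92.3% and 90.0% by 1 Setd5+/- island that both share. Anxa1, which encodes annexin A1, went from no coverage to 89.1%. All 10 of these genes had H3K4me3 near a start in both genotypes, though not at equal density. It held 33.9 reads per kb in wild type against 167 in Setd5+/- cells at Anxa1, and 113 against 194 at Eif4enif1. At Cks2 it was also denser in Setd5+/- cells, and at the other genes less dense.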

How the data were processed

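FastQC, Bowtie2 2.2.3, SICER 1.1 and the build GRCm38 (mm10) are named in the submitters' processing notes. Per the file headers, SICER was run for the H3K36me3, H3K36me2 and SETD5-V5 lists with windows of 800 bp, gaps up to 2400 bp and an FDR of 0.01. The deposited whole numbers beside each island were read as the authors' counts of reads, a reading taken from the values. Library totals and any use of inputs as controls are not given in the sources at hand. H3K4me1 and the inputs were not analysed here. Library preparation took 14 PCR cycles, without molecular identifiers, and single reads had 50 bp, so read counts carry duplication as well as counting error.

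With Python 3.11.15, numpy 2.4.6, pandas 2.3.3 and matplotlib 3.10.9, covered percent, island edges and start bases were computed per gene. Strand came from the RefSeq promoter table, which gave none for chromosome 18. The steps were tested on altered copies of the wild-type list. Named genes were the 10 largest losses and gains of covered kb, the 10 largest falls and rises in the strongest density class, called H3K36 genes, genes with lower coverage that lacked H3K4me3 afterwards, Setd5 and Setd2, of which a selection is printed. The genes, lists and rules were chosen with earlier results of these data known. All differences describe 1 library per group.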

Additional observations from a re-analysis of the deposited data

How the results depend on the processing

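Under 50 alternatives for 11 results, 38 kept their direction and stayed within 1.5 times of the value given, and 12 did not. Counts and shares have no direction to change, and the length and density results used genes chosen by wild-type islands, which lean to loss. For these results the tally is no check of direction. Without the first 4 kb the change at 5 to 10 kb counted as kept, at -14.02 points in genes marked in wild type. In genes marked in either genotype it was 0.51 points. The mean change of gene-body coverage was 0.50 points over all autosomes, in the opposite direction, -0.54 with the wild-type list cut to equal covered length and -0.48 with islands within 10 kb joined. Over all autosomes 1203 genes were higher. At a change of 10 points 1778 genes were lower and 1310 higher, and at 50 points 227 and 226, so the excess of lower genes was absent there. The middle of wild-type islands of at least 10 kb lacked 17.5% and that of islands of at least 50 kb 5.32%, against 11.3%. The ratio of covered start bases was 0.736 with islands within 10 kb joined, against 0.336. For genes with no other protein-coding gene within 10 kb it was 0.167. The alternatives for start bases, 5′ edges and the span without its first 4 kb were chosen after seeing the data. Start bases and 5′ edges had no entry of their own in the design, which names coverage along the gene. No paired analysis was possible because each genotype has 1 library. With 1 library per group the spread between cultures is unknown. The mean width, read density and weakest island differ between the lists, and depth outside islands is unknown, so coverage missing from a list is not shown to be absent.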
